A study of Drosophila melanogaster with 6 samples.

Results

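A set of 9 genes for secreted defence proteins was followed in Drosophila melanogaster embryos: Drs and Drsl5 of the Drosomycin family, the Daisho gene Dso1, the short Bomanin genes BomS1, BomS2 and BomS3, and the lysozyme genes LysB, LysD and LysE. They were picked by symbol, with their mutant and OreR counts already known, from the 14737 genes of the deposited table. Of these 9 genes, 8 had rows in the table and 1, Drs, had none under the identifier that the name tables pair with it (FBgn0283461), so Drs was not analysed here. The name tables left 637 genes of the deposited table unnamed, so Drs could be present under another identifier. RNA came from whole-embryo lysates of embryos carrying the CC01391 allele of caper, which encodes an RNA-binding splicing protein, and of embryos of the wild-type strain OreR. Each genotype had 3 biological replicates, no treatment was given, and collection was on yeasted apple juice plates. The sources used here give neither the age of the embryos, nor the zygosity of the allele, nor the background of the mutant strain. Every mutant library carried the CC01391 allele and every other library was OreR, so effects of the allele and of strain background cannot be told apart.

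Drosomycin is a cysteine-rich antifungal peptide that the fat body secretes when the Toll pathway is activated, and the Drosomycin-like genes are its copies in the same family. Bomanins and Daishos are short secreted peptides that are likewise induced by Toll signalling through the NF-kappa B factors Dif and Dorsal, and flies lacking them resist infection poorly. Lysozymes LysB, LysD and LysE belong to a gene cluster expressed mainly in the digestive tract, where such enzymes cut the peptidoglycan of bacterial walls. In the early embryo the same Toll receptor sets the dorsoventral axis.

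Gene counts summed to between 36979138 and 42956396 in mutant libraries and between 34815930 and 40241577 in OreR libraries. Levels are given as counts and as CPM, counts scaled to library size with TMM factors. In the edgeR quasi-likelihood fit over all genes, 46.9% of 10251 tested genes changed between genotypes (Benjamini-Hochberg adjusted p below 0.05), 26.4% upward and 20.6% downward in the mutant (2702 and 2109 genes), and the median log2 fold change was -0.07. Upper quartile scaling turned this balance round, with 2269 genes higher and 3566 lower of the same 10251, and shifted the median over all genes by -0.16 (log2). The caper gene's own counts were not analysed here, so no check of the genotype labels was made. Because the 9 genes were chosen from this same contrast, their levels and fold changes are descriptions without a test. Of the 8 measured genes, 6 passed the filter on low counts (Drsl5, Dso1, BomS1, BomS2, LysD and LysE), and BomS3 and LysB did not. The fit called 5 of these 6, and the CPM of the mutant and OreR libraries did not overlap in all 6 (3 higher and 3 lower in the mutant); over all tested genes they did not overlap in 60.4%, with the mutant higher in 30.8% and lower in 29.5%. BomS2 was not called without mutant replicate 1 or 2, nor without OreR replicate 1 or 3. Nothing is read from these calls and counts, since the same contrast chose the genes. In bulk RNA, fewer cells that express a gene and less RNA per cell cannot be told apart.

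**Figure D1:**
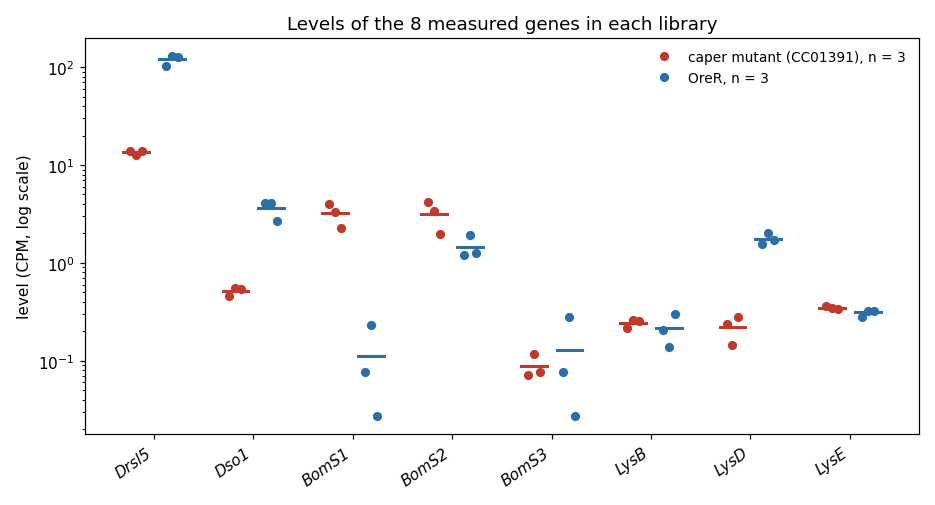
Level of each of the 8 measured genes in every library, in CPM on a log axis, with mutant libraries (red) left of OreR libraries (blue). Points are libraries and bars are means of 3; Drsl5 stands above 100 CPM in OreR and near 14 CPM in the mutant, BomS1 and BomS2 are higher in the mutant, and Dso1 and LysD are lower.

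Drsl5 (FBgn0035434), a Drosomycin-like gene, was by far the most abundant of the 8 genes in both genotypes. It had 580, 436 and 546 counts in the mutant libraries, against 3969, 5634 and 4727 counts in the OreR libraries. Every mutant library was well below every OreR library. The level was 13.5 ± 0.77 CPM in the mutant and 120.3 ± 15.9 CPM in OreR (SD, n = 3 each), a log2 fold change of -3.15 ± 0.12 (SE). Leaving out each library in turn kept the log2 fold change between -3.26 and -3.07. The gene has 1 exonic bin and no junction in the table, so its reads carry no splicing information.

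The 5 other Drosomycin-like genes (Drsl1, Drsl2, Drsl3, Drsl4 and Drsl6) had far fewer counts than Drsl5. Drsl4, which lies beside Drsl5, had 10, 6 and 3 counts in the mutant libraries, against 12, 11 and 9 counts in the OreR libraries. Together the 5 genes had 11, 7 and 4 counts in the mutant libraries, against 15, 14 and 10 counts in the OreR libraries, and Drsl3 had no count in any library. None of the 5 passed the filter on low counts, so none was tested. Drsl4 held most of these counts in each genotype.

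Dso1 (FBgn0040653), a Daisho peptide gene, was also lower in the mutant. It had 19, 19 and 21 counts in the mutant libraries, against 160, 178 and 98 counts in the OreR libraries. The groups did not overlap, and the lowest OreR library was OreR replicate 3. Levels were 0.52 ± 0.05 CPM in the mutant and 3.63 ± 0.84 CPM in OreR (SD, n = 3 each), a log2 fold change of -2.82 ± 0.26 (SE), and leaving out each library kept it between -2.96 and -2.69. Dso2, the other Daisho gene and the next gene along the chromosome, lay the other way at a low level. Dso2 had 9, 12 and 10 counts in the mutant libraries, against 3, 8 and 2 counts in the OreR libraries, and was too low to be tested.

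BomS1 (FBgn0034329), a short Bomanin gene, was close to absent in OreR and clearly present in the mutant. It had 168, 115 and 88 counts in the mutant libraries, against 3, 10 and 1 counts in the OreR libraries. The groups were far apart, with OreR replicate 2 holding most of the OreR counts. Levels were 3.21 ± 0.89 CPM in the mutant and 0.11 ± 0.11 CPM in OreR (SD, n = 3 each), a log2 fold change of 4.75 ± 0.52 (SE). Without OreR replicate 2 the log2 fold change was 5.84, because the remaining OreR libraries held 3 counts and 1 count, and without OreR replicate 3 it was 4.35. Among the 6 genes past the filter it had the widest biological coefficient of variation, 0.30, which is above that of 94.2% of tested genes.

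BomS2 (FBgn0025583), another short Bomanin gene of the same cluster, was higher in the mutant by less. It had 176, 116 and 77 counts in the mutant libraries, against 47, 83 and 47 counts in the OreR libraries. On the CPM scale the groups touched without overlapping, the lowest mutant library at 1.98 CPM and the highest OreR library at 1.92 CPM. The log2 fold change was 1.11 ± 0.33 (SE). With each library left out in turn it lay between 0.89 and 1.36. BomS3 (FBgn0040736), the third member of the short class, had 3, 4 and 3 counts in the mutant libraries, against 3, 12 and 1 counts in the OreR libraries. These values overlap, and a difference between genotypes was not detectable at this depth.

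BomS1 and BomS2 encode closely similar peptides, and reads that match both copies could have been split between them in the authors' counting, so their separate counts are uncertain. Summed over both genes, the libraries held 344, 231 and 165 counts in the mutant, against 50, 93 and 48 counts in OreR. The lowest mutant sum was above the highest OreR sum. BomS1 supplied 50.7% ± 2.37 of the summed counts in the mutant and 6.28% ± 4.34 in OreR (SD, n = 3 each). As counted, BomS1 was near the level of BomS2 in each mutant library and far below it in each OreR library, within the uncertainty of how shared reads were assigned.

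Both Bomanin genes have 2 exonic bins and 1 annotated junction in the table, as Dso1 does, and no unannotated junction was listed for any of the 8 genes. The junction of BomS2 was crossed by 67.2% ± 0.69 of the gene's counts in the mutant and 67.2% ± 8.85 in OreR (SD, n = 3 each). For Dso1 the share was 87.9% ± 8.26 in the mutant and 83.4% ± 4.11 in OreR. The junction of BomS1 held 268 of 371 counts in the mutant and 11 of 14 counts in OreR, so the few OreR reads also included spliced ones. Bins and junction moved with the gene in all of these, and the genotype difference was not carried by a single feature.

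**Figure D2:**
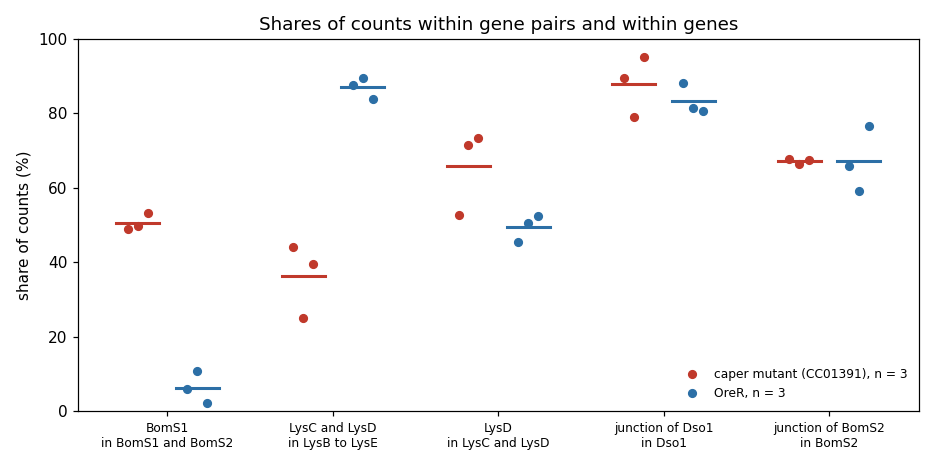
Share of counts in percent for each library, with mutant libraries (red) left of OreR libraries (blue) and bars at the mean of 3. BomS1 holds 50.7% of the counts of BomS1 and BomS2 in the mutant and 6.28% in OreR, LysC and LysD hold 36.2% and 87.0% of the lysozyme copies' counts in the mutant and in OreR, and junction shares overlap between genotypes.

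LysD (FBgn0004427), a digestive lysozyme gene, was lower in the mutant. It had 10, 5 and 11 counts in the mutant libraries, against 61, 87 and 63 counts in the OreR libraries. The groups lay far apart relative to the spread of their libraries. Levels were 0.22 ± 0.07 CPM in the mutant and 1.77 ± 0.23 CPM in OreR (SD, n = 3 each), a log2 fold change of -2.96 ± 0.28 (SE), between -3.15 and -2.74 on leaving out each library. LysE (FBgn0004428), a neighbouring copy, had 15, 12 and 13 counts in the mutant libraries, against 11, 14 and 12 counts in the OreR libraries. Its levels were 0.35 ± 0.01 CPM in the mutant and 0.31 ± 0.02 CPM in OreR (SD, n = 3 each), separated by less than 0.01 CPM between the nearest libraries. The log2 fold change of 0.16 ± 0.26 (SE) was smaller than its error, and with upper quartile scaling it was 0. LysB (FBgn0004425), at the other end of the same run of copies, had 9, 9 and 10 counts in the mutant libraries, against 8, 6 and 11 counts in the OreR libraries, and its groups overlapped.

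LysC, which is not among the 9 genes and lies beside LysD, followed LysD rather than LysB or LysE. It had 9, 2 and 4 counts in the mutant libraries, against 73, 85 and 57 counts in the OreR libraries, and it fell with a log2 fold change of -3.77 ± 0.38 (SE; adjusted p = 0.00059 in the edgeR fit over all genes). Without mutant replicate 1, which held most of its mutant counts, the log2 fold change of LysC was -4.37. These copies are near-identical, LysC and LysD adjoin each other, and the counts of each are uncertain because the authors' counting could split shared reads. Summed over LysB, LysC, LysD and LysE, the libraries held 43, 28 and 38 counts in the mutant, against 153, 192 and 143 counts in OreR. LysC and LysD together supplied 36.2% ± 10 of that sum in the mutant and 87.0% ± 2.87 in OreR (SD, n = 3 each). LysB and LysE together had 24, 21 and 23 counts in the mutant libraries, against 19, 20 and 23 counts in the OreR libraries. As the reads were assigned, the fewer counts in the mutant lay in LysC and LysD.

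**Figure D3:**
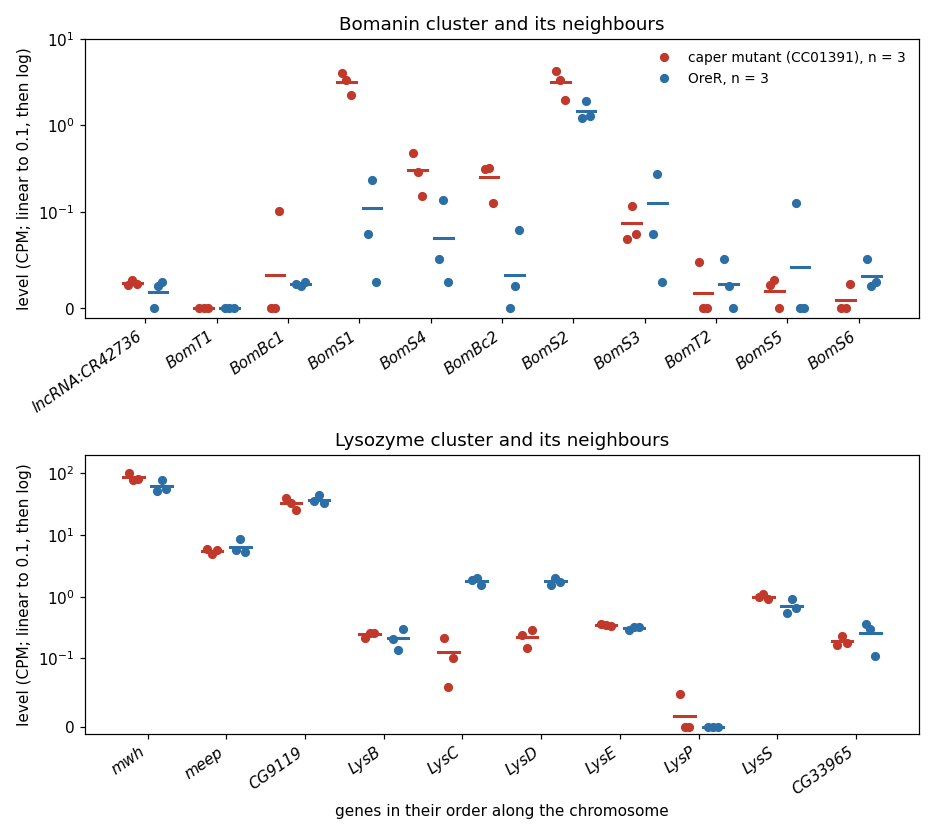
Level of each gene in the Bomanin cluster (top) and in the lysozyme cluster (bottom), in the order of the genes along the chromosome, with mutant libraries (red) left of OreR libraries (blue). The axis is in CPM, linear up to 0.1 and logarithmic above; points are libraries and bars are means of 3. BomS1 and BomS2 have the highest mutant levels among the Bomanin genes shown. BomS4 (0.31 CPM in the mutant, 0.07 in OreR) and BomBc2 (0.25 and 0.03), too low to be tested, also have higher means in the mutant. LysC and LysD are the lysozyme copies whose groups lie far apart.

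Levels per length put the 8 genes in a different order in the 2 genotypes. With counts divided by the exonic length of each gene in the BDGP6 annotation, Drsl5 led with 37.1 ± 2.11 CPM per kb in the mutant and 330.6 ± 43.6 CPM per kb in OreR (SD, n = 3 each). In the mutant, BomS1 (8.88 ± 2.45) and BomS2 (8.68 ± 3.07 CPM per kb) followed, with overlapping libraries. Below them in the mutant came Dso1 (0.67 ± 0.07), LysE (0.60 ± 0.02), LysD (0.46 ± 0.15) and LysB (0.40 ± 0.04 CPM per kb), and the libraries of each overlapped those of the next. BomS3 was lowest in the mutant at 0.11 ± 0.03 CPM per kb, apart from LysB. In OreR the genes after Drsl5 were Dso1 (4.74 ± 1.10), BomS2 (4.0 ± 1.08) and LysD (3.68 ± 0.48 CPM per kb), whose libraries overlapped. LysE (0.54 ± 0.04), LysB (0.35 ± 0.13), BomS1 (0.31 ± 0.30) and BomS3 (0.17 ± 0.17 CPM per kb) closed the order in OreR, apart from LysD and each overlapping the next.

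Genes flanking the 9 genes were read beside them. Taking the 3 nearest genes of the table on each side of every one, 33 neighbours were found, of which 16 were tested and 2 passed, both of them lower, beside 46.9% of all tested genes. Other settings called between 2 and 6 neighbours. With no filter on low counts 6 of 31 tested neighbours were called, beside 4547 of 13279 over all genes. The 2 that passed in the edgeR fit over all genes were LysC and kst, the spectrin gene next to Drs. Levels of kst were 336.0 ± 31.6 CPM in the mutant and 506.4 ± 63.7 CPM in OreR (SD, n = 3 each). Its log2 fold change was -0.59 ± 0.11 (SE, adjusted p = 0.0048 in edgeR). PIG-C, on the far side of Drsl5, had 6.54 ± 0.30 CPM in the mutant and 6.40 ± 1.86 CPM in OreR and did not pass (adjusted p = 0.91 in edgeR). Ipk1, a kinase gene next to Dso2, did not pass (log2 fold change 0.45 ± 0.16, adjusted p = 0.051 in edgeR). In the Bomanin cluster, BomS4 and BomBc2, which lie between BomS1 and BomS2, were too low to be tested. BomS4 had 20, 10 and 6 counts in the mutant libraries, against 2, 6 and 1 counts in the OreR libraries, and BomBc2 had 13, 11 and 5 counts in the mutant libraries, against 0, 1 and 3 counts in the OreR libraries. Both passed with no filter on low counts and without mutant replicate 3. BomBc2 also passed in DESeq2 and without OreR replicate 1 or 3, and BomS4 without OreR replicate 2. BomS4 and BomBc2 overlap in the annotation, and the counts of each are uncertain.

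The genes whose centred log2 CPM over the 6 libraries lay nearest to each of the 6 genes past the filter were found by Euclidean distance among tested genes. Nearest to Drsl5 were CG11034 (distance 0.37, log2 fold change -3.25) and GILT3 (0.46, -2.93). Dso1 was nearest to CG31275 and CCHa2, at distances of 0.53 and 0.55. LysD was nearest to CG13154 (0.43) and TTLL3A (0.45), and LysE to CG3770 (0.05) and Pex19 (0.06). BomS1 was nearest to CG30148 (0.67, log2 fold change 5.06) and CG31904 (1.03, 6.44), and BomS2 was nearest to Osi3 (0.43) and FBgn0020439 (0.55). None of these was another of the 9 genes. The 6 libraries are shared by all of these distances.

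Genes of other antimicrobial peptides had few counts in both genotypes. Among 14 other antibacterial peptide genes (attacins, cecropins, diptericins, defensin and others), only Mtk, the antifungal peptide metchnikowin, passed the filter. Mtk had 0.33 ± 0.12 CPM in the mutant and 0.26 ± 0.11 CPM in OreR (SD, n = 3 each), and it did not pass the test (log2 fold change 0.29 ± 0.42, adjusted p = 0.59 in edgeR). DptA, chosen after its values were seen, had 9, 9 and 7 counts in the mutant libraries, against 1 count in each OreR library, and was too low to be tested. The 14 genes together summed to between 0.75 and 1.01 CPM in mutant libraries and between 0.57 and 0.88 CPM in OreR libraries. Of 14 other Bomanin, Daisho and Baramicin genes, 13 were in the table and only BaraC was tested, with 0.93 ± 0.15 CPM in the mutant and 0.97 ± 0.07 CPM in OreR (adjusted p = 0.80 in edgeR).

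Among 15 other lysozyme genes, 7 were tested, 2 fell and none rose, beside 20.6% lower calls over all genes. Under upper quartile scaling the list again had 2 of 7 lower, beside 3566 of 10251 over all genes. Besides LysC these included LysX, which had 0.19 ± 0.10 CPM in the mutant and 0.53 ± 0.12 CPM in OreR (SD, n = 3 each; log2 fold change -1.42 ± 0.41, adjusted p = 0.026 in edgeR). The call of LysX ended without mutant replicate 2 (adjusted p = 0.071), mutant replicate 3 (0.06) or OreR replicate 2 (0.084), and in DESeq2 (0.054). LysS, the last copy of the cluster, had 1.00 ± 0.09 CPM in the mutant and 0.71 ± 0.20 CPM in OreR and did not pass (adjusted p = 0.15 in edgeR). CG6426, the most abundant of the list, had 3.39 ± 0.71 CPM in the mutant and 4.12 ± 1.06 CPM in OreR (adjusted p = 0.38 in edgeR).

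Genes of the Toll pathway, which induces Drosomycin and the Bomanins, changed in both directions. Of 24 listed genes, 21 were in the table and 20 were tested. SPE, dl and Dif had no row under the identifiers used, so the genes for Dorsal and Dif were not analysed here. Of the tested genes 6 rose and 4 fell, beside the background of 46.9% changed. The median of the tested Toll genes was -0.03 on the log2 scale, beside -0.07 over all genes. The receptor gene Tl had 1189 ± 235.1 CPM in the mutant and 534.4 ± 48.7 CPM in OreR (SD, n = 3 each), with a log2 fold change of 1.15 ± 0.15 (SE; adjusted p = 0.0010 in edgeR). The gene cact, whose protein holds Dorsal and Dif inactive in the cytoplasm, rose with a log2 fold change of 0.89 ± 0.12, and ea, the protease that cleaves the Toll ligand in the dorsoventral pathway, rose with 1.21 ± 0.17. The protease gene modSP, which acts upstream of Toll in immunity, rose with 0.57 ± 0.12, and pip, a sulfotransferase gene of dorsoventral patterning, fell with -0.55 ± 0.12. The ligand gene spz did not pass, at 50.7 ± 5.87 CPM in the mutant and 58.5 ± 6.08 CPM in OreR (adjusted p = 0.19 in edgeR). Upper quartile scaling gave 6 Toll genes that rose and 8 that fell, beside 2269 and 3566 of 10251 over all genes.

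In the Imd pathway, which answers mainly to Gram-negative bacteria, 6 of 21 tested genes rose and 4 fell, beside 46.9% changed over all genes, and the list's median was 0.09 (log2). Under upper quartile scaling the split was 6 up and 8 down, beside 2269 and 3566 of 10251 over all genes. The genes that rose included key, a subunit of the IKK complex (log2 fold change 0.80 ± 0.09, SE), ben and Uev1A, which encode ubiquitin-conjugating proteins (0.92 ± 0.10 and 1.12 ± 0.15), the kinase gene Tak1 (0.64 ± 0.09) and eff (0.61 ± 0.09), whose mutant mean equalled that of akirin. The gene of highest mean over the 6 libraries, akirin, which encodes a nuclear cofactor, had 1135 ± 86.5 CPM in the mutant and 831.1 ± 84.4 CPM in OreR (SD, n = 3 each; adjusted p = 0.0095 in edgeR). PGRP-SB1, a peptidoglycan recognition protein gene chosen after its values were seen, fell to 0.54 ± 0.14 CPM in the mutant, against 1.76 ± 0.15 CPM in OreR (adjusted p = 0.0014 in edgeR). In the JAK-STAT and Turandot list, 2 of 7 tested genes rose, beside 26.4% over all genes: dome, the receptor gene (0.83 ± 0.13), and Stat92E, the transcription factor gene (0.88 ± 0.12). The stress peptide genes TotX and TotZ had no count in any library.

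**Figure D4:**
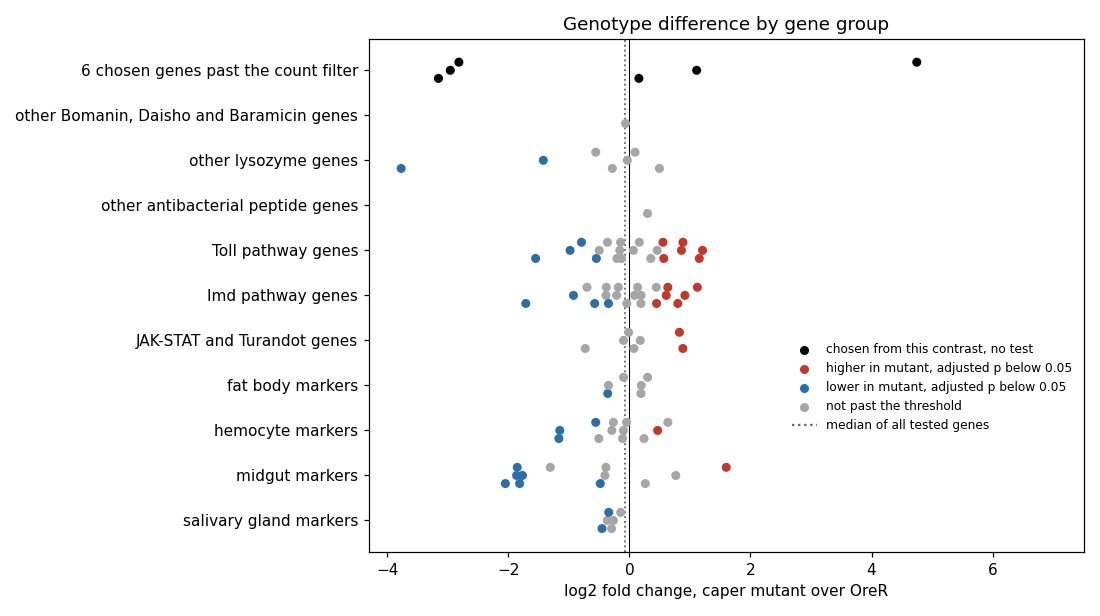
Log2 fold change, mutant over OreR, of each tested gene by group. Black points are the 6 chosen genes past the count filter, which carry no test; red and blue points rose or fell in the edgeR fit over all genes, grey points did not pass, and the dotted line is the median of all tested genes, -0.07. Drsl5, Dso1, LysD and BomS1 lie at -3.15, -2.82, -2.96 and 4.75, and nothing is read from this, since the same contrast chose them. LysC, in the group of other lysozyme genes, lies at -3.77.

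Markers of tissues in which these genes are known to be expressed were read beside them, and their part in the differences was not tested. Over all tested genes 20.6% fell and 26.4% rose. Of 12 tested midgut markers 6 fell and 1 rose, and the 22 listed genes summed to between 115.8 and 139.5 CPM in mutant libraries and between 155.3 and 209.4 CPM in OreR libraries. The maltase gene Mal-A1 was among those that fell (log2 fold change -1.85 ± 0.23), whereas Mal-A3 rose (1.60 ± 0.32). Of 6 tested fat body markers 1 fell, the lipophorin gene apolpp (-0.36 ± 0.11), and the median of the 6 was 0.05 (log2). The listed genes summed to between 1934 and 2000 CPM in mutant libraries and between 2166 and 2891 CPM in OreR libraries, of which apolpp alone made up 1801 ± 25.9 CPM in the mutant and 2308 ± 354.7 CPM in OreR (SD, n = 3 each). The call of apolpp ended without mutant replicate 1 (adjusted p = 0.11), 2 (0.11) or 3 (0.062) without OreR replicate 2 (0.076) or 3 (0.092), with DESeq2 size factors (0.051) and with no filter on low counts (0.078). Of 12 tested hemocyte markers 3 fell, Col4a1 (-1.15), vkg (-1.16) and PPO2 (-0.56), and 1 rose, Pxn (0.47). The listed genes summed to between 1144 and 1490 CPM in mutant libraries and between 1791 and 2473 CPM in OreR libraries. Col4a1 and vkg had the most counts of the list. Col4a1 had 21149, 15669 and 11548 counts in the mutant libraries, against 41234, 44942 and 25250 counts in the OreR libraries. For vkg these were 12893, 9586 and 7339 counts, against 25850, 28256 and 15377 counts. The phagocyte receptor gene eater had no count in any library. Of 6 tested salivary gland markers 2 fell, CrebA (-0.34) and PH4alphaSG1 (-0.45), with sums between 305.7 and 350.1 CPM in mutant libraries and between 353.7 and 454.2 CPM in OreR libraries. Sgs5, Sgs7 and Sgs8 had no count. Neither CrebA nor PH4alphaSG1 was called with DESeq2 size factors, with no filter on low counts or with the replicate block. On leaving out each library, both were called only without OreR replicate 1. Upper quartile scaling called 5 of the 6 markers lower, beside 3566 of 10251 genes lower over all genes.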

How the data were processed

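Whole-embryo RNA of 3 caper mutant and 3 OreR libraries was analysed from a JunctionSeq counts matrix. The authors deposited raw counts of 73704 exonic bins, 54271 annotated and 418 unannotated junctions, and of the rest of each gene; both were added, and the smallest sum over a gene's rows was its count (sums differed in 48 genes). Size-factor normalised signal, also deposited by the authors, gave only the check of size factors. Libraries were stranded, per the labels' protocols. GSNAP, SAMtools, BDGP5 and mm10 are listed in the submitters' processing notes, with annotation and strand setting not given in the sources used here. Reference tables of BDGP6 named 14100 of 14737 genes and gave gene order and exonic lengths only; no coordinates or sequences are printed.

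Counts were tested with edgeR 4.0.16 (R 4.3.3; filterByExpr, TMM, glmQLFit, glmQLFTest, genotype as the only term), with Benjamini-Hochberg adjustment over all 10251 tested genes. Standard errors were taken as the absolute log2 fold change over the root of the F statistic. The fit was also run on simulated data, with the outcome not given here. Alternatives used DESeq2 1.42.0, other scalings, no filter, a replicate block, another gene count and each library left out. No pair of replicates was alike within sampling noise (chi-square per gene at least 28.6). The 9 genes, the lists and the tests were chosen with earlier results of these data known. Named genes are the 9, their neighbours and nearest profiles, and, per list of other immune genes, up to 5 called genes of smallest p and the most abundant one; markers and exceptions are stated.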

Additional observations from a re-analysis of the deposited data

How the results depend on the processing

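The log2 fold changes of Drsl5, Dso1, BomS1, BomS2 and LysD had the same sign in every setting run. Nothing is read from this, since every setting reuses the contrast that chose the genes. That of LysE was 0.16 with TMM and 0 with upper quartile scaling. The count of changed genes over all genes lay between 3169 (without mutant replicate 2) and 4376 on leaving out each library, against 4811 with all of them. Upper quartile scaling gave 2269 higher and 3566 lower genes, against 2702 and 2109 with TMM. Changed genes among other Bomanin, Daisho and Baramicin genes, 0 in edgeR at the adjusted threshold and 0 at an unadjusted p under 0.05, numbered 2 with no filter on low counts, 1 in DESeq2 and from 0 to 2 on leaving out each library. Other lysozyme genes, 2 in edgeR, numbered 1 in DESeq2 and from 1 to 3 on leaving out each library. Other antibacterial peptide genes, 0 in edgeR and 0 at an unadjusted p under 0.05, numbered 1 with no filter and 1 in DESeq2, the gene being DptA. Neighbouring genes, 2 in edgeR, numbered 4 with DESeq2 size factors, 6 with no filter, 6 in DESeq2, 5 with the replicate block and from 2 to 4 on leaving out each library; these alternatives for neighbours were added after seeing the data. The number of genes tested differed as well. Of other Bomanin, Daisho and Baramicin genes 1 was tested in the main edgeR fit and 12 with no filter. For other antibacterial peptide genes these numbers were 1 and 13, and for neighbours 16 and 31. The cause of these moves was not tested.

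Pairing of the samples by replicate number was not clear. Deviations of same-numbered libraries correlated at 0.09, -0.012 and 0.597, the last being the highest of all pairs. Mutant replicate 1 correlated best with OreR replicate 2 (0.437). With the replicate block 4943 genes changed; apart from neighbours and salivary gland markers (0 against 2), no list count moved by more than 1.5 times. Depth limits BomS3, LysB and most other peptide genes, whose counts were too few to pass the filter; with no filter and in DESeq2 most of these were fitted.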
